A study of Mus musculus with 2 samples.

Results

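Igf1, which encodes insulin-like growth factor 1, and the 5 IGF binding protein genes Igfbp3, Igfbp4, Igfbp5, Igfbp6 and Igfbp7 were examined in stromal cells of the mouse gut. These 6 genes were taken by name from the 16381 genes listed for a colon library and the 18262 listed for a small intestine library. Each library was made by droplet single-cell RNA sequencing from healthy, untreated tissue, and there was 1 library per tissue. Dissociated cells had been sorted as live and negative for EpCAM and CD45, which removes epithelial and immune cells. The digestion lasted 60 min for the colon and 45 min for the small intestine. How many animals gave each library, and their strain, sex and age, are not stated in the labels. The sample labels name both libraries as controls and give no genotype. The comparison is between tissues, and tissue, library, animals and digestion time cannot be told apart. The colon library holds cells with Xist and cells with Y-linked UMIs. Of its 5611 fibroblasts, 2541 held Xist and no Y-linked UMIs, while 4642 of 5845 small intestine fibroblasts held Y-linked UMIs. The libraries thus differ in the share of cells with Y-linked UMIs, and may differ in the sex of their animals.

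IGF1 is a secreted growth factor that signals through the receptor IGF1R, and mesenchymal cells of the gut wall are among its local sources. The IGF binding proteins are secreted too. IGFBP3 to IGFBP6 bind IGFs with high affinity and can limit or prolong their action, and proteases such as pregnancy-associated plasma protein A (Pappa) cleave some of them and release the ligand. IGFBP7 has low affinity for IGFs and is known as a vascular and matrix protein.

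The authors' cell labels were used throughout. A UMI marks 1 captured RNA molecule, and a level is given as CPM, the UMIs of a gene per 1000000 UMIs of all cells with that label in that library. Because a molecule is counted a single time whatever its length, levels are compared between genes without a length term, but capture can differ between genes. The 95% intervals are exact and cover counting error only. Cells of a library are not replicates, so a difference between tissues has no replicate check here and none was tested. The colon library held 6018 cells with a median of 6598 UMIs (1502 to 25718), and the small intestine library held 9359 cells with a median of 5943 (820 to 19886). The libraries shared 21 cell barcodes.

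At least 50 cells in each library carried each of 6 labels. Numbers of cells are given as colon and then small intestine: 3631 and 2823 CD81- FBs, 875 and 1913 trophocytes, 1105 and 1109 SEMFs, 217 and 2498 LECs, 53 and 524 BECs, and 125 and 468 SMCs. The full labels add that SEMFs are PDGFRa-high and trophocytes CD81-positive. The first 3 labels were also pooled as fibroblasts. All 6 lymphatic endothelial markers were highest in LECs and all 6 smooth muscle markers in SMCs in both libraries, and 8 of 8 (colon) and 7 of 8 (small intestine) SEMF markers were highest in SEMFs. Blood endothelial markers were highest in BECs for 6 of 6 and 5 of 6 genes, and trophocyte markers in trophocytes for 5 of 7 and 4 of 7. Of 5 markers listed for CD81- FBs, 2 and 1 were highest there, so that label is used as given and is not supported by its list. Cells labelled SMCs also held fibroblast markers, with a summed level of 7 genes of 6318 CPM in colon cells and 14134 CPM in the small intestine. The 5 markers listed for CD81- FBs summed to 1633 CPM in colon SMCs and 9955 CPM in small intestine SMCs. In CD81- FBs of the small intestine they summed to 9381 CPM. Whether the SMC label holds like cells in the 2 libraries was not tested, which limits every SMC tissue ratio below. In the colon library 2541 fibroblasts held Xist and no Y-linked UMIs, 1637 held Y-linked and no Xist UMIs, and 139 held both. Xist is not among the genes listed for the small intestine, so its values were used for the colon only. In the small intestine 4642 of 5845 fibroblasts held Y-linked UMIs.

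The members lie on 5 chromosomes of mm10 (GRCm38), by the RefSeq gene spans. Igf1 spans chr10:87858265-87937047 on the plus strand and Igfbp4 chr11:99040005-99052655 on the plus strand. Igfbp3 spans chr11:7206086-7215498 on the minus strand, 3.5 kb from Igfbp1. Igfbp5 spans chr1:72858065-72874865 on the minus strand, 5.6 kb from Igfbp2. Igfbp6 spans chr15:102144186-102149512 on the plus strand and Igfbp7 chr5:77349240-77408045 on the minus strand. Igfbp1 and Igfbp2, the neighbours of Igfbp3 and Igfbp5, were not analysed here.

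The 250 bases before the RefSeq start are shown for Igfbp6, the only member that was highest in a fibroblast label among the 6 labels of both libraries and in the same one each time, and for Igfbp7, which was found in nearly every fibroblast. They are given 5′ to 3′ on the strand of the gene, from RefSeq (GRCm38.p6), at chr15:102143936-102144185 and chr5:77408046-77408295. Neither window overlaps a gene or exon of GENCODE. Capitals mark 4 motifs on either strand: the TATA box TATAAA, its variant TATATA, the GC box GGGCGG and the CCAAT box. No matches overlap.
Igfbp6: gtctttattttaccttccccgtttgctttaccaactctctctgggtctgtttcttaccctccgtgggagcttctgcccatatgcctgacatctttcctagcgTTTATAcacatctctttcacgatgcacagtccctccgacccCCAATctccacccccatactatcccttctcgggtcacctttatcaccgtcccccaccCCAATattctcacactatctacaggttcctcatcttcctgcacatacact
Igfbp7: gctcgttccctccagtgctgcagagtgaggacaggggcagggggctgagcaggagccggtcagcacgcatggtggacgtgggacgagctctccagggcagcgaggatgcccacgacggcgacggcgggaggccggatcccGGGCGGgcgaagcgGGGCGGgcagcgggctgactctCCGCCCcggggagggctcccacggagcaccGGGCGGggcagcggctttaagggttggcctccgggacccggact
The Igfbp6 window has 49.6% GC, with CCAAT at positions -107 and -50 from the start and TATAAA on the opposite strand at -148. The Igfbp7 window has 74.0% GC and 4 GGGCGG matches, 3 of them on the printed strand at -110, -96 and -44. Among the corresponding windows of 32851 RefSeq promoters the median GC content was 52.4%, and 12.4% held TATAAA on either strand, 5.25% held the variant TATATA, 32.7% held the GC box and 33.8% held the CCAAT box. These letter matches are a description and say nothing of binding.

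Igf1 was a transcript of smooth muscle and fibroblast labels, and within each of CD81- FBs, SEMFs and SMCs it was higher in the small intestine. In SMCs, Igf1 stood at 298 CPM (261 to 339) in colon cells and 764 CPM (732 to 797) in the small intestine, the highest of the 6 labels in both libraries. Of the genes with at least 100 UMIs in the libraries together, 17.0% in the colon and 13.2% in the small intestine had their highest level in SMCs. The fibroblast labels followed. Igf1 in CD81- FBs was 108 CPM (104 to 112) in colon cells and 304 CPM (296 to 311) in the small intestine, and in SEMFs 91.4 CPM (84.7 to 98.6) and 378 CPM (363 to 393). Trophocytes, the CD81-positive fibroblasts that support the crypt base, held close levels in both tissues, 198 CPM (187 to 209) in colon cells and 216 CPM (209 to 224) in the small intestine. The order of the 3 fibroblast labels was inverted: trophocytes led in the colon and SEMFs in the small intestine. The log2 ratio of colon to small intestine was -1.49 (-1.55 to -1.42) in CD81- FBs, -2.05 (-2.17 to -1.92) in SEMFs and -1.36 (-1.56 to -1.16) in SMCs. In trophocytes it was -0.13 (-0.22 to -0.03), the size of the shift of the median gene there, so that relative to that gene it was -0.01.

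Endothelial labels held little Igf1. The levels were 12.2 CPM in LECs and 18.5 CPM in BECs of the colon, and 10.8 CPM and 13.7 CPM in the small intestine, and in both libraries the 2 labels did not differ beyond counting error. Fibroblast RNA, free or held by a few cells, can give such values, so 6 fibroblast matrix genes were taken as a measure of it. Their level in colon LECs was 8.65% to 11.5% of that in colon fibroblasts, and Igf1 stood at 10.2%. The corresponding range in colon BECs was 16.8% to 28.7%, with Igf1 at 15.5%. Igf1 in the colon endothelial labels thus did not exceed the matrix genes and is not read as expression by endothelial cells. Dcn was uneven there: the tenth of cells with the most Dcn UMIs held 89.6% of them in LECs and 96.9% in BECs. Free RNA and fibroblast RNA held by a few cells were therefore not told apart. In the small intestine the matrix genes stood at 2.29% to 2.67% in LECs and 1.11% to 1.61% in BECs, and Igf1 at 3.81% and 4.82%. In SMCs Igf1 stood above the fibroblast level, at 248% in the colon and 269% in the small intestine, against at most 73.3% and 58.1% for the matrix genes.

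The share of cells with an Igf1 UMI followed the levels. It was 40.5% (38.9 to 42.1) of CD81- FBs in the colon and 67.0% (65.3 to 68.8) in the small intestine, and 31.6% and 75.0% of SEMFs. With each cell thinned to 1500 UMIs, the shares in SEMFs were 10.7% and 39.4%, and in trophocytes 23.0% and 24.7%. Thinning left out 12 small intestine SEMFs and 12 small intestine trophocytes with fewer UMIs, and no colon cell. In LECs 5.53% of colon and 2.36% of small intestine cells held an Igf1 UMI, at median depths of 4545 and 4118 UMIs.

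**Figure D1:**
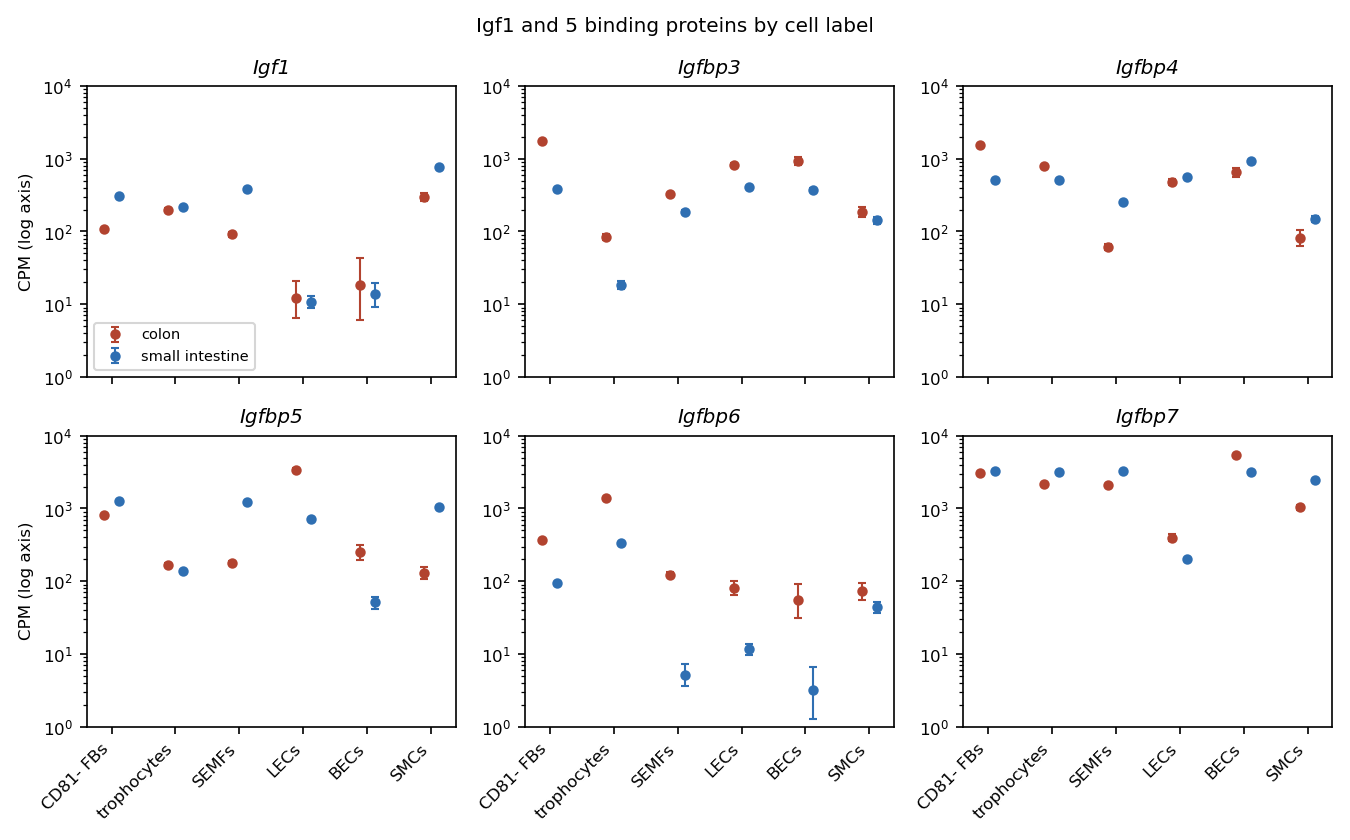
Level of each member (CPM, log axis) in 6 cell labels of the colon (red) and small intestine (blue) library; points are summed UMIs per 1000000 and bars the exact Poisson 95% interval. Igf1 peaks in SMCs and Igfbp6 in trophocytes in both libraries, while Igfbp5 in SMCs is 131 CPM in colon cells and 1039.8 CPM in the small intestine.

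Igfbp3, the main carrier of IGFs in serum, was higher in the colon library in every one of the 6 labels. The largest level was in colon CD81- FBs, at 1749 CPM (1732 to 1766) against 379 CPM (370.4 to 387) in the small intestine, for a log2 ratio of colon to small intestine of 2.21 (2.17 to 2.24). Trophocytes were the lowest label in both libraries, at 84.0 CPM (77.1 to 91.5) and 18.4 CPM (16.3 to 20.7), with a similar log2 ratio of 2.19 (1.98 to 2.40). Few cells carried it: in colon trophocytes the tenth of cells with the most Igfbp3 UMIs held 86.2% of them. In small intestine trophocytes 69 cells held all 277 Igfbp3 UMIs, and 1 of them held 84. SEMFs held 325 CPM (312 to 338) in colon cells and 185 CPM (175 to 196) in the small intestine. The smaller ratio in SEMFs, 0.81 (0.71 to 0.91), lies outside the counting intervals of the other 2 fibroblast labels. Igfbp3 UMIs were found in 90.2% of colon and 52.9% of small intestine CD81- FBs, and in 18.5% and 3.61% of trophocytes. In the colon the 6 smooth muscle markers summed to 272 CPM in Igfbp3-positive and 63.9 CPM in Igfbp3-negative trophocytes. In the small intestine they summed to 286 CPM and 41.5 CPM, and the 6 lymphatic endothelial markers to 838 CPM and 24.8 CPM. Trophocyte and fibroblast markers summed lower in positive cells of both libraries. The part of RNA from other cells was not tested.

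Both endothelial labels held Igfbp3 at a larger share of the fibroblast level than the matrix genes. The level in LECs was 819 CPM (766 to 876) in colon cells and 406 CPM (394 to 418) in the small intestine, and in BECs 938 CPM (826 to 1061) and 375 CPM (349 to 401). In LECs this is 68.4% of the fibroblast level in the colon and 186% in the small intestine, against at most 11.5% and 2.67% for the matrix genes. CD81- FBs of the small intestine, at 379 CPM, did not differ from BECs beyond counting error, and LECs stood a log2 ratio of 0.10 above CD81- FBs, an order that turns to -0.07 with every cell weighted equally. Restricted to cells with no UMI of the matrix gene Dcn, the log2 tissue ratio in LECs was 1.06 beside 1.01 for all LECs, and in BECs 0.53 beside 1.32. Igfbp3-positive colon LECs held a summed level of the 7 fibroblast markers of 2351 CPM, against 332 CPM in Igfbp3-negative ones, and the part of fibroblast RNA in the level of colon LECs was not tested. In SMCs the levels were 186 CPM and 142 CPM, but 1 colon cell held 71 of the 144 UMIs, and without the top cell of each library the log2 ratio of 0.39 becomes -0.52.

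The colon library mixes cells with Xist and cells with Y-linked UMIs, and Igfbp3 differed between them. In colon CD81- FBs the level was 1971 CPM in Y-linked-only cells and 1433 CPM in Xist-only cells. Both stand above the 379 CPM of the small intestine. In colon SMCs the values were 434 CPM in 45 cells and 30.8 CPM in 37 cells, and in colon BECs 106 CPM in 11 cells and 897 CPM in 22 cells. Taking only the Y-linked cells of the colon, the log2 tissue ratio in BECs becomes -1.83, and taking only the Xist cells, that in SMCs becomes -2.20.

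Igfbp4, a binding protein cleaved by Pappa, was more abundant in colon CD81- FBs and trophocytes than in those of the small intestine, and higher in the small intestine in SEMFs. In CD81- FBs it stood at 1522 CPM (1507 to 1538) in colon cells and 505 CPM (495 to 515) in the small intestine, for a log2 ratio of 1.59 (1.56 to 1.62). Trophocytes held 799 CPM (777 to 821) and 510.1 CPM (499 to 522). SEMFs went the other way, with 61.2 CPM (55.7 to 67.1) in colon cells and 253 CPM (241 to 266) in the small intestine, for a log2 ratio of -2.05 (-2.20 to -1.90). SEMFs were thus the lowest label for Igfbp4 in the colon and the fifth of 6 in the small intestine, where SMCs were lowest at 147 CPM. The share of SEMFs with an Igfbp4 UMI was 21.8% in the colon and 62.2% in the small intestine, and 6.92% and 29.8% after thinning. In colon trophocytes Igfbp4 was 567 CPM in Y-linked-only and 969 CPM in Xist-only cells, both above the 510.1 CPM of the small intestine.

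In the small intestine Igfbp4 was highest in BECs, at 934 CPM (894 to 975), with 79.6% of cells positive, and the matrix genes there stood at no more than 1.61% of the fibroblast level. Colon BECs had 649 CPM (556 to 753), but 1 cell held 62 of their 175 UMIs and 32.1% of the 53 cells were positive. LECs held 477 CPM (436 to 520.1) in colon cells and 555 CPM (541 to 569) in the small intestine, and relative to the median gene of that label the log2 ratio of -0.22 becomes 0.05.

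Igfbp5, a binding protein that also attaches to matrix, had the widest range of tissue ratios over the 6 labels, with opposite directions in different labels. Colon LECs held the most, 3434 CPM (3324 to 3548), against 714 CPM (699 to 730.1) in small intestine LECs, for a log2 ratio of 2.27 (2.21 to 2.32). Almost all colon LECs were positive, 96.3% (92.9 to 98.4), against 52.2% (50.2 to 54.1) in the small intestine, and 88.4% against 37.3% after thinning. The colon LEC level is 584% of that in colon fibroblasts, and in LECs with no Dcn UMI the log2 tissue ratio was 2.55. Within the colon LECs the level was 2816 CPM in 53 Y-linked-only cells and 4300.4 CPM in 98 Xist-only cells.

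SEMFs and SMCs showed the reverse for Igfbp5. SEMFs had 179 CPM (169 to 189) in colon cells and 1230.4 CPM (1204 to 1258) in the small intestine, for a log2 ratio of -2.78 (-2.87 to -2.70). SMCs had 131 CPM (107 to 159) and 1039.8 CPM (1002 to 1078), a log2 ratio of -2.99 (-3.29 to -2.70). The matrix genes in SMCs stood at a median of 35.4% of the fibroblast level in the colon and 41.2% in the small intestine, and Igfbp5 at 22.2% and 123%. Single matrix genes were less alike, with Dcn at 17.6% and 45.1%. Lum, at 33.0% and 28.5%, and Col3a1, at 73.3% and 58.1%, went the other way. The part of fibroblast RNA in the SMC difference was not tested. CD81- FBs held 820.4 CPM (809 to 832) and 1249 CPM (1234 to 1264), and trophocytes 167 CPM and 138 CPM. In trophocytes the small colon excess turns to a log2 ratio of -0.44 when only the Xist cells of the colon are used. BECs were at 252 CPM and 51.1 CPM, but 8 of 53 colon BECs held all 68 UMIs, and the log2 ratio of 2.30 becomes -0.60 without the 6% of cells with the most UMIs in each library.

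Igfbp5 in SEMFs was carried by few cells. The tenth of cells with the most Igfbp5 UMIs held 95% of them in the colon and 81.0% in the small intestine, where for Igfbp7 in the same label the values were 23.8% and 21.9%. Positive cells were 178 of 1105 in the colon, with 7.48 Igfbp5 UMIs each, and 351 of 1109 in the small intestine, with 22.9 each and up to 343 in 1 cell. Positive and negative SEMFs had much the same summed level of the 8 SEMF markers, 4520.4 CPM and 4512 CPM in colon cells and 5761 CPM and 6396 CPM in the small intestine. The 6 smooth muscle markers summed to 3881 CPM in positive and 2329 CPM in negative colon SEMFs, and to 4363 CPM and 5182 CPM in the small intestine, so they did not move one way. The 6 lymphatic endothelial markers summed to 13.2 CPM and 8.33 CPM in colon cells, and to 87.5 CPM and 37.9 CPM in the small intestine. The 7 fibroblast markers also summed higher in positive cells of both libraries, and the 5 markers listed for CD81- FBs lower. The part of RNA from other cells was not tested. In SMCs of the small intestine Igfbp5 was spread more widely, with 72.2% of cells positive.

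Igfbp6, which prefers IGF2 over IGF1, was highest in trophocytes in both libraries, and its log2 ratio of colon to small intestine was above 0 in all 6 labels. Of the same genes, 12.2% in the colon and 8.59% in the small intestine had their highest level in trophocytes. Igfbp6 in trophocytes was 1396 CPM (1367 to 1425) in colon cells and 331 CPM (322 to 340.4) in the small intestine, for a log2 ratio of 2.08 (2.03 to 2.13). CD81- FBs had 364 CPM (356 to 371) and 94.0 CPM (89.8 to 98.3), a similar log2 ratio of 1.95 (1.88 to 2.02). The step from trophocytes to CD81- FBs was also alike in the libraries, with a log2 ratio of 1.94 (1.90 to 1.98) in the colon and 1.82 (1.74 to 1.89) in the small intestine. In colon trophocytes Igfbp6 differed little between Y-linked-only cells, at 1324 CPM, and Xist-only cells, at 1402 CPM.

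Outside those labels Igfbp6 was low. SEMFs held 123 CPM (115 to 132) in colon cells and 5.21 CPM (3.61 to 7.28) in the small intestine, for a log2 ratio of 4.56 (4.07 to 5.10). In the small intestine 1.62% of SEMFs were positive at a median of 5510.0 UMIs, below the 3.40% of LECs at a median of 4118, and whether that value stands above free RNA was not tested. It rests on 18 positive cells. In the colon 26.6% of SEMFs and 18.0% of LECs were positive, and 11.6% and 8.44% after thinning. LECs held 80.7 CPM and 11.7 CPM, which is 16.5% and 7.06% of the fibroblast level beside matrix gene medians of 9.91% and 2.58%. BECs held 15 UMIs in the colon and 7 in the small intestine, and SMCs stood at 73.8 CPM (55.9 to 95.6) and 43.8 CPM (36.4 to 52.3). Igfbp6 was at 11.4% of the fibroblast level in colon BECs and 15.1% in colon SMCs, below the lowest matrix gene there (16.8% and 17.6%). In small intestine SMCs it was at 26.5%, also below the lowest matrix gene (27.2%). Igfbp6 in these 3 thus did not stand above the matrix genes, and whether it is background was not tested. In small intestine BECs Igfbp6 was at 1.93%, above the highest matrix gene (1.61%), but that value rests on 7 UMIs. The matrix genes are a loose measure in SMCs, where Dcn was found in 91.2% of colon and 98.3% of small intestine cells. The tissue ratios of Igfbp6 in BECs and SMCs are therefore not read.

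Igfbp7 was the most abundant binding protein transcript in every label except LECs, and the member with the smallest tissue ratio in pooled fibroblasts. In CD81- FBs it was 3117 CPM (3095 to 3139) in colon cells and 3299.8 CPM (3275 to 3325) in the small intestine, and its direction turns with the scaling, from a log2 ratio of -0.08 to 0.14 relative to the median gene. In SEMFs the levels were 2115 CPM and 3272 CPM and in trophocytes 2174 CPM and 3174 CPM. At least 99.1% of the cells of each fibroblast label held an Igfbp7 UMI in either library. BECs, where the gene is known as a vascular marker, held 5418 CPM (5144 to 5703) in colon cells and 3130.1 CPM (3057 to 3205) in the small intestine. LECs held the least, 399 CPM (362 to 439) and 203 CPM (194 to 211), or 14.4% and 6.24% of the fibroblast level. In LECs with no Dcn UMI the log2 tissue ratio of 0.98 becomes -0.21. SMCs held 1038 CPM and 2462 CPM, a log2 ratio of -1.25 (-1.35 to -1.14).

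The direction in which members passed a 2-fold difference depended on the label, and is given here beside the share of all genes that did so. In pooled fibroblasts 3 of 6 were past 2-fold toward the colon (Igfbp3, Igfbp4 and Igfbp6), where 6.88% of all genes with 100 UMIs were, and 1 toward the small intestine (Igf1), where 9.47% were. The same genes made up the count in CD81- FBs, with backgrounds of 6.46% and 10.4%. In trophocytes Igfbp3 and Igfbp6 were past 2-fold toward the colon (background 4.23%) and no member toward the small intestine (8.24%). Igfbp3 there rests on 162 positive colon and 69 positive small intestine cells. In SEMFs 1 was toward the colon, Igfbp6 (5.36%), and 3 toward the small intestine, Igf1, Igfbp4 and Igfbp5 (15.1%).

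In the labels outside the fibroblasts, Igfbp3, Igfbp5 and Igfbp6 were past 2-fold toward the colon in LECs (background 3.45%) and none toward the small intestine (15.4%). The matrix genes stood at a median of 9.91% of the fibroblast level in colon LECs and 2.58% in small intestine LECs. For Igfbp6, at 16.5% and 7.06%, the part of fibroblast RNA in the LEC ratio was not tested. In BECs 4 members had 100 UMIs, and 2 of them, Igfbp3 and Igfbp5, were past 2-fold toward the colon (3.10%) and none toward the small intestine (19.6%). The BEC counts are fragile, since Igfbp5 rests on 8 positive colon cells and becomes -0.60 without the 6% of cells with the most UMIs, and Igfbp3 becomes -1.83 with the Y-linked-only cells of the colon. In SMCs no member was past 2-fold toward the colon (3.37%) and 3 were toward the small intestine, Igf1, Igfbp5 and Igfbp7 (17.3%). The median gene itself stood between -0.33 (SEMFs) and -0.11 (trophocytes) on the log2 scale, and -0.17 in pooled fibroblasts. Relative to it, Igf1 in pooled fibroblasts was -1.07, Igfbp3 2.63, Igfbp4 1.44, Igfbp5 -0.35, Igfbp6 1.73 and Igfbp7 -0.06. Because CD81- FBs make up more of the colon fibroblasts, the ratios were also taken with the 3 labels at equal weight. Igfbp4 then moved from 1.26 to 0.91, below 2-fold, which leaves Igfbp3 and Igfbp6 past it toward the colon. Igfbp5 moved from -0.52 to -1.17, which puts it past 2-fold toward the small intestine beside Igf1, also at -1.17.

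**Figure D2:**
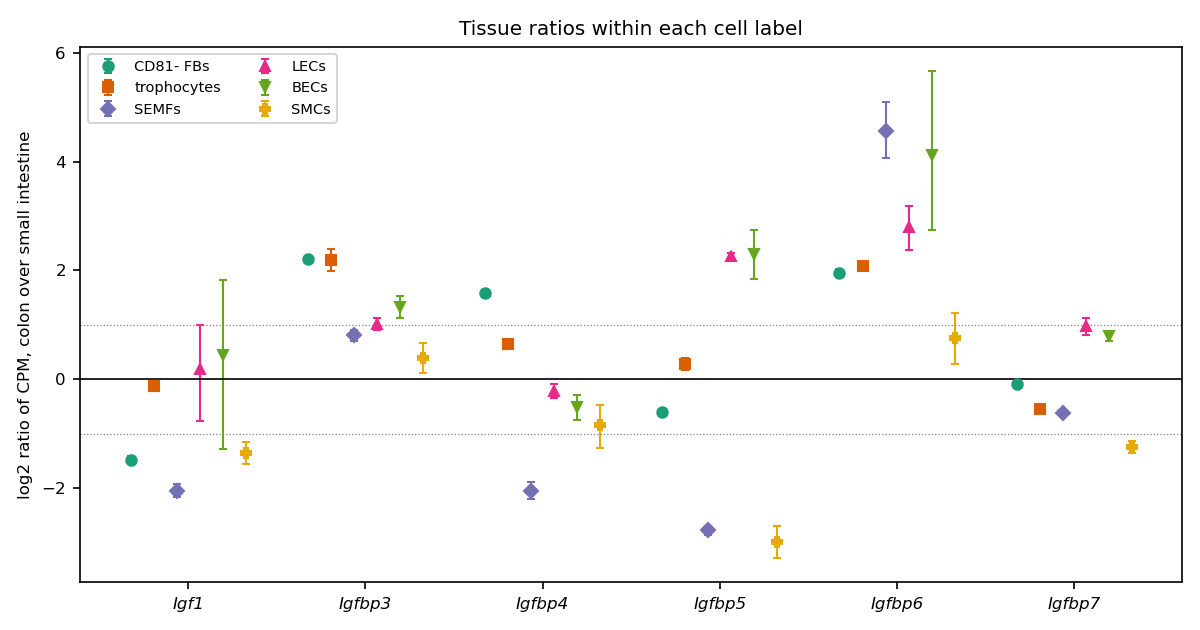
Log2 ratio of CPM, colon over small intestine, for each member in each of 6 labels (marker shape and colour), with 95% counting intervals; dotted lines mark 2-fold. All 6 labels lie above 0 for Igfbp3 and Igfbp6, while Igfbp5 runs from -2.99 in SMCs to 2.30 in BECs.

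The make-up of the binding protein transcripts differed between labels and tissues. Igfbp7 gave 41.2% of the UMIs of the 5 genes in colon CD81- FBs and 59.7% in small intestine CD81- FBs, and in trophocytes 47.0% and 76.1%. The remainder was taken by different genes. In colon CD81- FBs Igfbp3 made up 23.1% and Igfbp4 20.1%, whereas in the small intestine Igfbp5 came next after Igfbp7, at 22.6%. In colon trophocytes Igfbp6 made up 30.2%, against 7.94% in the small intestine. LECs were the only one of the 6 labels led by Igfbp5, with 65.9% in the colon and 37.8% in the small intestine. In SMCs the ratio of binding protein UMIs to Igf1 UMIs was nearly equal in the tissues, 5.07 in the colon and 5.02 in the small intestine, although both terms were higher in the small intestine. In CD81- FBs there were 69.9 binding protein UMIs per Igf1 UMI in the colon and 18.2 in the small intestine, and in SEMFs 30.7 and 13.1. Trophocytes were close, at 23.3 and 19.3.

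**Figure D3:**
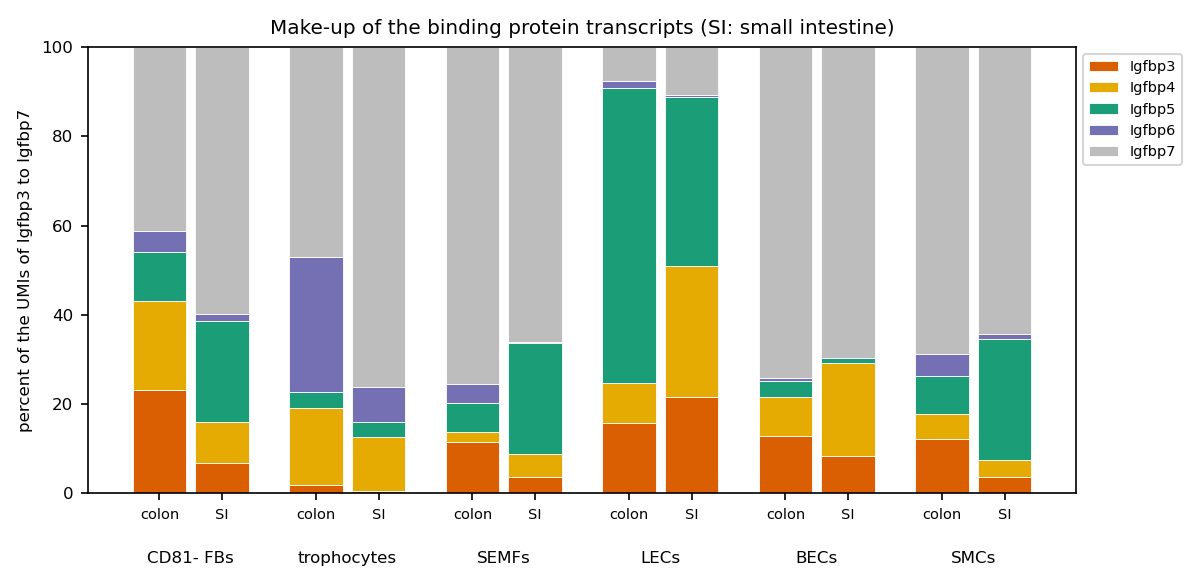
Each binding protein gene as a percent of the UMIs of Igfbp3 to Igfbp7 (stacked bars) in 6 labels of the colon and small intestine (SI) libraries. Igfbp7 (grey) is the largest part in every label but LECs, where Igfbp5 (green) makes up 65.9% in the colon and 37.8% in the small intestine.

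Single cells commonly held several binding protein transcripts. All 5 were detected in 42.6% (41.0 to 44.2) of colon CD81- FBs, of which 605 of 1547 also held Igf1, and in 7.44% (6.50 to 8.47) of small intestine CD81- FBs. In trophocytes all 5 were detected in 5.71% of colon and 0.732% of small intestine cells, and in SEMFs in 1.45% and 0.180%. These counts rise with the UMIs of a cell. Pairs were therefore compared with each cell thinned to 1500 UMIs, as the share of cells positive for both genes over the product of their single shares, where a value of 1 means detection without regard to each other.

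These ratios describe the cells of each library and carry no test. Igf1 and Igfbp6 gave values below 1 in CD81- FBs, 0.782 in the colon and 0.667 in the small intestine. In colon SEMFs the ratio was 0.544, while in trophocytes it was 0.994 in the colon and 0.896 in the small intestine. The value for small intestine SEMFs rests on 18 Igfbp6-positive cells and is not read. Without thinning, 25.4% of Igf1-positive and 34.3% of Igf1-negative small intestine CD81- FBs held Igfbp6, and 58.8% and 68.3% in the colon, although Igf1-positive cells had more UMIs (medians 7310.0 and 6312 in the small intestine, 7073 and 6426 in the colon). Igfbp3 and Igfbp6 in CD81- FBs gave 0.359 in the small intestine and 0.903 in the colon. Without thinning, 17.0% of Igfbp3-positive and 41.1% of Igfbp3-negative small intestine CD81- FBs held Igfbp6. Igfbp5 and Igfbp6 gave values above 1 in the small intestine, 1.31 in CD81- FBs and 1.88 in trophocytes, and near 1 in the colon, 0.923 and 1.05. Igf1 and Igfbp5 in SEMFs gave 1.54 in the colon and 0.969 in the small intestine.

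**Figure D4:**
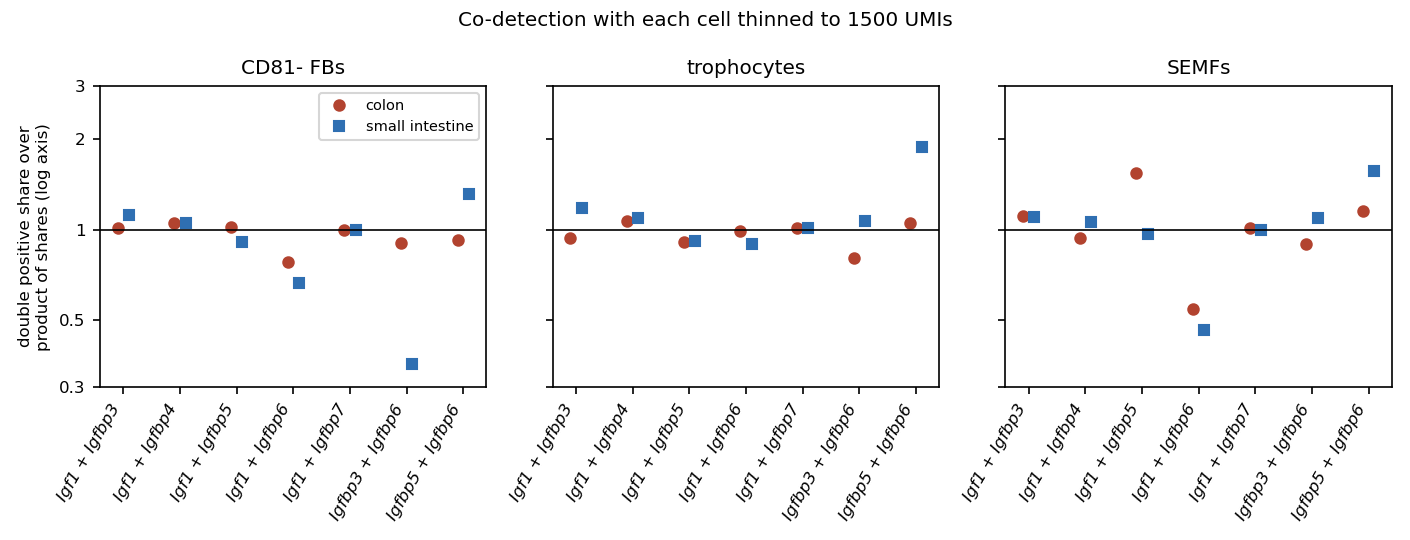
Share of cells positive for both genes over the product of the single shares (log axis) for 7 pairs of members in the 3 fibroblast labels, with each cell thinned to 1500 UMIs; colon in red, small intestine in blue. Igf1 with Igfbp6 lies below 1 in CD81- FBs of both libraries and in colon SEMFs, the point for small intestine SEMFs rests on 18 Igfbp6-positive cells, and Igfbp3 with Igfbp6 reaches 0.359 in small intestine CD81- FBs.

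CD81- FBs with and without each gene were then compared for the 7 trophocyte markers, to see what else the positive cells held. Igfbp6-positive CD81- FBs had all 7 markers higher in both libraries, with summed levels of 1781 CPM against 1304 CPM in colon cells and 2749.9 CPM against 1559.8 CPM in the small intestine. The 7 fibroblast markers also summed higher, 19190.1 CPM against 15891 CPM in colon cells and 31806 CPM against 23495 CPM in the small intestine. The 5 markers listed for CD81- FBs summed lower, 6134 CPM against 11162 CPM and 7414 CPM against 10294 CPM. That list was mixed, since 3 of its 5 genes were higher in Igfbp6-positive colon cells and 1 of 5 in the small intestine. Pi16, a marker of adventitial fibroblasts, stood at 11.8 CPM in Igfbp6-positive and 1.55 CPM in Igfbp6-negative colon CD81- FBs, and at 54.3 CPM and 2.98 CPM in the small intestine. Grem1, a secreted antagonist of bone morphogenetic proteins, differed little, with a log2 ratio of 0.19 (0.12 to 0.25) in the colon and 0.05 (-0.05 to 0.16) in the small intestine.

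Igfbp3-positive CD81- FBs showed the opposite. Of the 7 markers, 1 was higher in the colon (Ackr4, whose interval spans 0) and 0 in the small intestine, and the summed levels were 1561 CPM against 2194 CPM and 1472 CPM against 2466 CPM. The 7 fibroblast markers also summed lower, 17979 CPM against 18987 CPM in colon cells and 21892 CPM against 30951 CPM in the small intestine. The 5 markers listed for CD81- FBs summed higher, 8128 CPM against 4997 CPM and 11131 CPM against 7390.1 CPM. Of these, 3 of 5 were higher in Igfbp3-positive colon cells and 4 of 5 in the small intestine. Pi16 was at 5.04 CPM in Igfbp3-positive and 40.5 CPM in Igfbp3-negative colon cells, and at 4.66 CPM and 35.8 CPM in the small intestine. The labels were made by the authors from these same cells, so these splits describe variation within a label and are not independent of it.

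**Figure D5:**
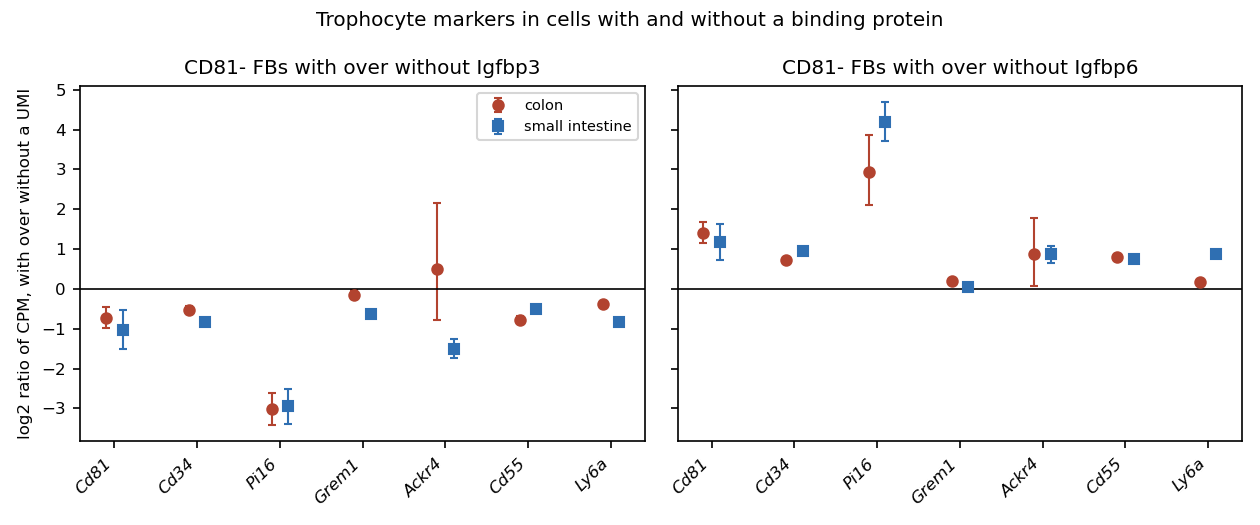
Log2 ratio of CPM of 7 trophocyte markers in CD81- FBs with over without a UMI of Igfbp3 (left) or Igfbp6 (right), with 95% counting intervals; colon in red, small intestine in blue. All points lie above 0 for Igfbp6, and for Igfbp3 all but Ackr4 in the colon lie below 0, with Pi16 at -3.01 and -2.94.

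Other genes of the pathway were read from fixed lists in pooled fibroblasts. Of the other ligand and the 3 receptors, 1 gene was past 2-fold toward the colon (Igf2) and 1 toward the small intestine (Insr), where 6.88% and 9.47% of all genes were. Igf2 was low, at 5.38 CPM in colon cells and 0.911 CPM in the small intestine. Igf1r, the receptor of IGF1, stood at 224 CPM and 323 CPM and was lower in the colon in all 6 labels, with log2 ratios between -0.67 and -0.51, the last (BECs) with an interval that spans 0. Igf2r, which clears IGF2, was level at 67.4 CPM and 65.0 CPM. Insr, the insulin receptor, stood at 37.3 CPM and 103 CPM, and in BECs at 111 CPM and 461 CPM. Of the 3 other binding proteins and partners analysed here (Igfals, Kazald1 and Esm1), Kazald1 alone had 100 UMIs in fibroblasts, at 13.8 CPM and 5.66 CPM. Esm1, an endothelial gene with an IGFBP-like domain, was found mainly in BECs, at 352 CPM in colon cells and 109 CPM in the small intestine.

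Among 14 proteases of binding proteins and their inhibitors, 11 had 100 UMIs. Of these, 2 were past 2-fold toward the colon (background 6.88%) and 4 toward the small intestine (9.47%). Their median log2 ratio was -0.19 beside -0.17 for all genes. Pappa, a protease of IGFBP4, stood at 139 CPM in colon cells and 506 CPM in the small intestine, and in SEMFs at 276 CPM and 1189 CPM. Its inhibitor Stc2 went the same way, at 45.6 CPM and 259 CPM, with its highest fibroblast level in small intestine trophocytes (481 CPM). In both libraries SEMFs held the highest Pappa of the 3 fibroblast labels and the lowest Igfbp4, at 61.2 CPM in colon cells and 253 CPM in the small intestine. Elsewhere the 2 genes went together: both were higher in SEMFs of the small intestine than of the colon. In the colon both were higher in CD81- FBs than in trophocytes. These are transcript levels, and cleavage of the protein was not measured. Htra1, a serine protease that cleaves binding proteins, went toward the colon, at 531 CPM and 145 CPM, as did the plasminogen activator Plau, at 17.9 CPM and 1.01 CPM. Adam12 was at 13.1 CPM and 63.8 CPM and Mmp3 at 22.6 CPM and 97.7 CPM, both metalloproteases.

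No gene of the 5 in the growth hormone axis was past 2-fold. Of all genes, 6.88% were past it toward the colon and 9.47% toward the small intestine, and the counts below are read beside these shares. The growth hormone receptor Ghr, through which Igf1 is induced in liver, stood at 493 CPM in colon cells and 814 CPM in the small intestine. Of 10 intracellular signalling genes 0 were past 2-fold toward the colon and 2 toward the small intestine, Irs1 (40.0 CPM and 93.5 CPM) and Foxo1 (52.3 CPM and 130.0 CPM), and their median log2 ratio was -0.72, beside -0.17 for all genes. The CCN genes, secreted matrix proteins with an IGFBP-like domain, had 3 of 5 past 2-fold toward the colon (background 6.88%). Their median log2 ratio was 1.77, beside the same -0.17 for all genes. Ccn2, known as connective tissue growth factor, stood at 355 CPM and 65.2 CPM, while Ccn1 stood at 537 CPM and 701 CPM.

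The genes whose levels over the 12 values (6 labels in 2 libraries) were most like those of each member were found by Pearson's r among 6083 genes. These r values are a description, since the labels of a library share its cells and depth. They were P2ry14 (0.959), Dtx3 (0.959) and Rbbp7 (0.957) for Igf1, and Gm11476 (0.794), Mdp1 (0.764) and Rbm42 (0.757) for Igfbp3. For Igfbp4 they were Npdc1 (0.842), Adam17 (0.822) and Emp1 (0.820), and for Igfbp5 Col18a1 (0.923), Morrbid (0.869) and Mtdh (0.821). Igfbp6 was nearest to Rps3a1 (0.922), Ccdc80 (0.911) and Igsf8 (0.902), and Igfbp7 to Unc119b (0.948), Pltp (0.935) and Ly6a (0.923). Between members r ran from -0.54 (Igf1 and Igfbp3) to 0.41 (Igf1 and Igfbp7).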

How the data were processed

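The authors deposited raw UMI counts by gene and cell for either library, together with natural log normalized values and cell labels. The submitters' processing notes name Cell Ranger 7.1.0, Seurat 4 and mm10, with no role given. How cells and genes were filtered is not given in the sources used here. Scaling each cell to 10000 UMIs, adding 1 and taking the natural log gave the deposited natural log values back within 1e-13. UMI counts were summed per library and label (Python 3.11.15, numpy 2.4.6, scipy 1.17.1, pandas 2.3.3). CPM carry exact Poisson intervals, shares of cells Clopper-Pearson intervals, and log2 ratios conditional binomial intervals, all at 95%, and a count of 0 was replaced by 3. No cell was removed as a doublet and no caller was run. Instead, an alternative left out the 6% of cells with the most UMIs. Label spellings that differed between the libraries were joined, and the 3 colon labels CapECs, ArtECs and VenECs became BECs. The code was tested on simulated data. Of the symbols, 98.7% (colon) and 98.4% (small intestine) matched GENCODE.

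The genes named are the 6 members, the fixed pathway and marker lists, and for each member the 3 genes with the highest Pearson r of log2(CPM + 10), among genes with at least 50 CPM in a label. The members and lists were chosen with earlier results of these data known. Background shares use the genes listed for both libraries whose UMIs sum to 100 or more. Alternatives changed the weighting, the scaling, and the cells kept.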

Additional observations from a re-analysis of the deposited data

Results flagged for a closer look

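Igfbp4 had log2 ratios of colon to small intestine of opposite sign in different labels, 1.59 in CD81- FBs and -2.05 in SEMFs. Igfbp5 had 2.27 in LECs and 2.30 in BECs but -2.78 in SEMFs and -2.99 in SMCs. With 1 library per tissue, these differences between labels were not tested. The BEC value rests on 8 positive colon cells and reversed under 3 alternatives.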

How the results depend on the processing

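Without replicates, a move larger than the counting interval was taken as a change. Of 263 alternative values for the 36 ratios within a label, 134 stayed within it, 116 moved and 13 reversed, in 7 ratios. The 48 values for pooled fibroblasts held no reversal, and 32 moved. The causes of these moves were not tested, except that leaving out the top cell shows the part of 1 cell.

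With every cell weighted equally, the fibroblast log2 ratios became -1.30 (Igf1), 2.36 (Igfbp3), 1.20 (Igfbp4), -0.56 (Igfbp5) and 1.68 (Igfbp6). With totals that leave out the 20 most abundant genes they were -1.10 (Igf1), 2.60 (Igfbp3), 1.40 (Igfbp4), -0.38 (Igfbp5), 1.70 (Igfbp6) and -0.09 (Igfbp7), and relative to the median gene -1.07, 2.63, 1.44, -0.35, 1.73 and -0.06. Without the 6% of cells with the most UMIs Igf1 was -1.31 and Igfbp5 -0.46. With colon cells that hold Y-linked and no Xist UMIs, Igfbp3 was 2.57, Igfbp4 1.05 and Igfbp7 -0.30, and with Xist-only cells Igf1 was -1.18, Igfbp3 2.16, Igfbp4 1.38 and Igfbp7 -0.20. With the 3 fibroblast labels at equal weight they were -1.17 (Igf1), 1.89 (Igfbp3), 0.91 (Igfbp4), -1.17 (Igfbp5), 2.13 (Igfbp6) and -0.40 (Igfbp7).

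The reversals were Igfbp7 in CD81- FBs (0.09 without the 20 genes, 0.14 against the median gene), Igfbp5 in trophocytes (-0.44 with Xist-only cells), Igfbp4 in LECs (0.05 against the median gene) and Igfbp7 in LECs (-0.21 without Dcn-positive cells, chosen after seeing the data). In BECs, Igfbp3 reversed with Y-linked-only cells (-1.83) and Igfbp5 without the 6% of cells (-0.60), with Y-linked-only cells (-0.54) and without Dcn-positive cells (-0.17). Igfbp3 in SMCs reversed with equal weights (-0.37), without the 6% of cells (-1.31), without the top cell (-0.52) and with Xist-only cells (-2.20). Igfbp3 in LECs over CD81- FBs of the small intestine turned to -0.07 with equal weights.

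Thinning to 1500 UMIs lowered the shares of cells with a UMI in fibroblasts by construction. No paired analysis was possible because there is 1 library per tissue, and no replicate could be left out. Depth limits BECs and SMCs of the colon most, with 53 and 125 cells.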
